A study of Mus musculus with 14 samples.

Results

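The replication-dependent histone genes of a mouse pre-B cell line were followed through IL-7 withdrawal and induced Ikaros activity. The members were all probe sets with exactly 1 gene symbol of the H1f1 to H1f5, H2ac, H2bc, H3c or H4c series, which gave 26 genes of 19938 tested, each with 1 probe set. They comprised 4 linker histone H1 genes, 4 H2A genes, 9 H2B genes, 3 H3 genes and 6 H4 genes. The gene table listed 63 symbols of this kind. Of the other 37, 36 appeared only in probe sets that list several symbols. Many H2A, H2B, H3 and H4 genes are nearly identical in coding sequence within their class. A probe set with 1 symbol may therefore read RNA of other members, which was not tested for any class.

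BH1-Bcl2-Ik1ER is 1 pre-B cell line that lacks Ikaros, a zinc finger protein that regulates transcription in lymphocytes and their precursors. Cells that carried retroviral Bcl2, a survival protein, together with retroviral Ikaros fused to an estrogen receptor were sorted to make the line, and all 7 groups carry both. The fusion is switched on with 4-hydroxytamoxifen (4OHT, 100 nM), and IL-7, the cytokine on which early B cells grow, came from 8% conditioned medium that was left out for withdrawal. The groups were time 0 in IL-7, 6 h with 4OHT and IL-7, 6 h with 4OHT and no IL-7, and 24 h in each of the 4 combinations of 4OHT and IL-7. Each group had 2 arrays, 1 from each of 2 independent experiments. No 6 h group lacked 4OHT and no cells lacked the fusion, so effects of 4OHT itself and of Ikaros activity cannot be told apart.

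Values are log2 expression from whole-transcript arrays, and every difference below is on that scale. Array medians lay between 7.23 and 7.43, and both arrays of a group correlated at 0.9968 to 0.9982 over genes. With so few arrays, the median standard error (SE) of a log2 difference was 0.0912. Markers of the B lineage lay above the overall median of 7.33 in 8 of 9 cases, against 0 of 8 T cell markers, 1 of 10 myeloid markers and 1 of 9 testis and germ cell markers. A gene passed at an adjusted p under 0.05 over all genes.

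Replication-dependent histone genes supply the proteins that package newly copied DNA. Core histones H2A, H2B, H3 and H4 form the nucleosome, and H1 binds the linker DNA between nucleosomes. Their messages are made mainly in S phase and, unlike other messages, most end in a conserved stem-loop bound by SLBP in place of a poly(A) tail. Most of the genes sit in clusters, and their promoters are short and rich in TATA and CCAAT elements, with an octamer at many H2A and H2B genes.

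RefSeq promoter windows (GRCm38.p6) were found for 22 of the 26 genes, 20 on chromosome 13 and 2 on chromosome 3. The 180 bases before the start are shown for 6 of them, chosen to set genes that fell deeply or slightly after IL-7 withdrawal beside 1 that did not pass. H1f5 lies at chr13:21780626-21780805 on the minus strand, H2ac4 at chr13:23750908-23751087 on the plus strand and H2bc14 at chr13:21721864-21722043 on the plus strand. H2bc1, the gene that did not pass, lies at chr13:23934157-23934336 on the minus strand, H3c15 at chr3:96239128-96239307 on the minus strand and H4c4 at chr13:23581388-23581567 on the plus strand. Capitals mark the TATA element TATAAA, the box CCAAT and the octamer ATTTGCAT, each on either strand.
H1f5: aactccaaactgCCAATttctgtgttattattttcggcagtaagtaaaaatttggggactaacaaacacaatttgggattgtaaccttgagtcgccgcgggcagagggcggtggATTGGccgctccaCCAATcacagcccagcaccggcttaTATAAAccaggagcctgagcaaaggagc
H2ac4: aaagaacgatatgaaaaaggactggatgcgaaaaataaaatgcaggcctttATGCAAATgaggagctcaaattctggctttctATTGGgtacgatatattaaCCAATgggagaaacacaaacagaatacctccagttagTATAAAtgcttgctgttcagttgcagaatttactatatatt
H2bc14: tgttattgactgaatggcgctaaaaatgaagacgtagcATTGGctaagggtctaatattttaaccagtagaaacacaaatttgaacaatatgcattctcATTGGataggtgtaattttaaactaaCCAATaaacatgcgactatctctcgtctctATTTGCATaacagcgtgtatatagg
H2bc1: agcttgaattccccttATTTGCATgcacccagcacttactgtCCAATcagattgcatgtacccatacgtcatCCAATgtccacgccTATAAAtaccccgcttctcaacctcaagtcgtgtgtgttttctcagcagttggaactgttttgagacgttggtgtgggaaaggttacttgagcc
H3c15: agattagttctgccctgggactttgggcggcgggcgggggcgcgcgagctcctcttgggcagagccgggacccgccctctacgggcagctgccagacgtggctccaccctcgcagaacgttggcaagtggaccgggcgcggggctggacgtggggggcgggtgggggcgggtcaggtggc
H4c4: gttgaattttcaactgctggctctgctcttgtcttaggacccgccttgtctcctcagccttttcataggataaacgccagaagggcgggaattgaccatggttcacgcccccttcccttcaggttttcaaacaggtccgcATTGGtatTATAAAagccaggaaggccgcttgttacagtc

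Over 250 bases before the start and on both strands, TATAAA stood in 14 of 22 member promoters and in 12.4% of 32851 promoter windows of that length. CCAAT stood in 18 of 22, against 33.8% of all windows. The octamer was found in 8 of 22, against 1.6% of all windows, in 3 of 4 H2A and 5 of 7 H2B promoters and in no H1, H3 or H4 promoter. The octamer stood both in genes that fell and in genes that did not pass. It was present in H2ac4 and H2bc14, which fell after IL-7 withdrawal, and in H2ac1, H2ac8 and H2bc1, which did not pass. The windows of H2ac1 and H2bc1 overlap, as do those of H2ac8 and H2bc8, which fell with 4OHT. Each of these pairs shares an octamer, a TATAAA and CCAAT sites that are counted for both genes, so the motif counts are not of separate sites. The only TATAAA in the windows of H2bc1 and H2ac8 is the shared one. H3c15, with the deepest fall, held none of these motifs, and H1f5, H2ac15 and H2bc9 fell with no octamer in the window. The letters GGGAA, the core that Ikaros binds, stood in 10 of 22 member promoters, against 56.2% of all windows. All 5 H4 genes with a window were among them, and H2ac1 and H2bc1 share such a site.

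Most members gave bright probe sets. In 22 of the 26 all group means lay above the overall median, H1f3 and H2bc22 were above it in some groups, and H2ac8 and H3c7 lay below it throughout. By mean over all arrays, which is not an order of transcript levels between probe sets, the dimmest were H3c7 at 5.73, H2ac8 at 6.47 and H2bc22 at 7.25. H4c4 was brightest at 13.88, near the highest value in the table (14.34), and saturation was not read because no scanner intensities were used. Over the groups the means of H3c15 spanned 2.74 and those of H2ac4 1.75, the widest ranges of the 26.

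**Figure D1:**
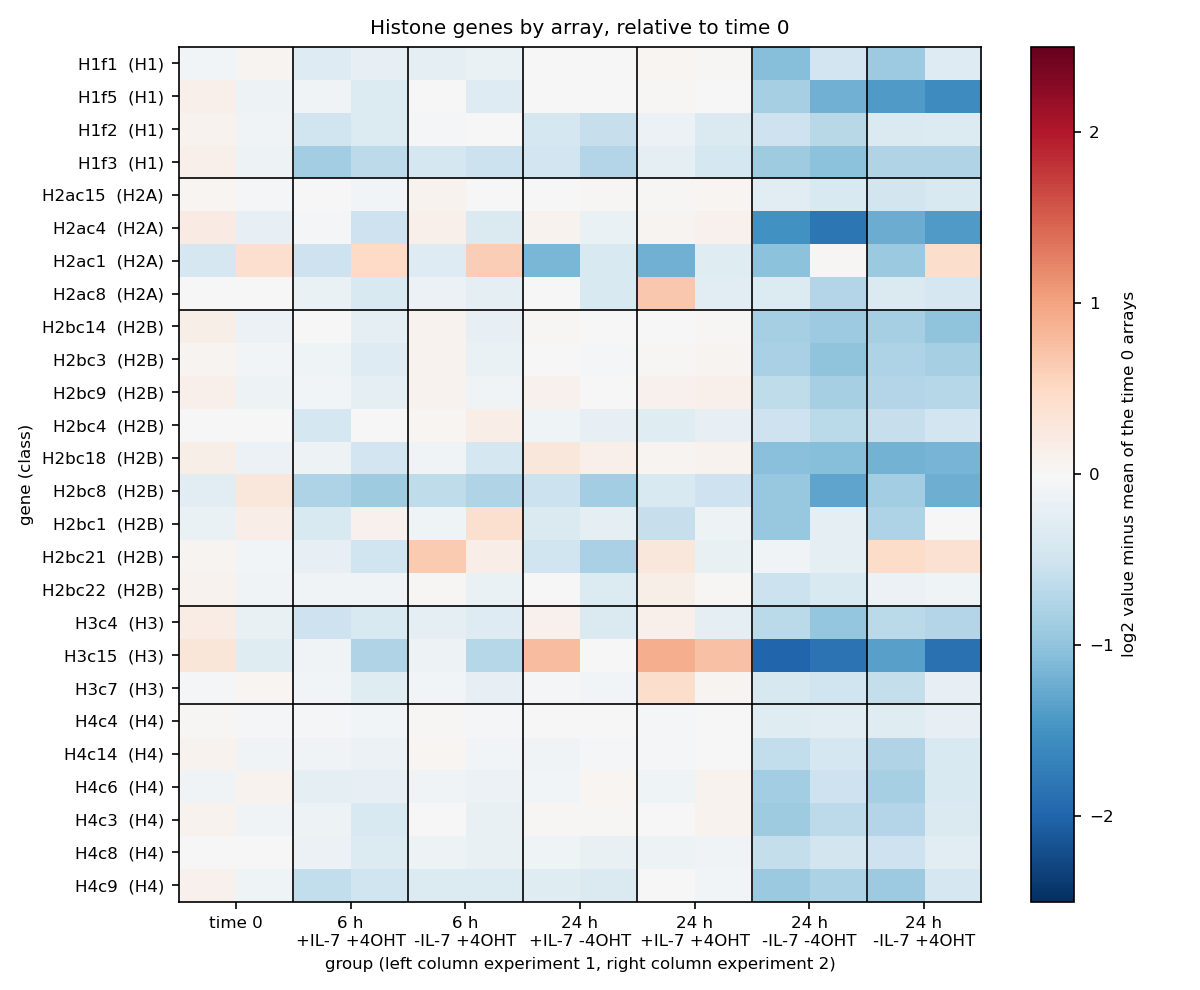
Heat map of the 26 histone genes (rows, by class) on each array (columns, by group, experiment 1 left and experiment 2 right). Colour gives the log2 difference from the mean of both time 0 arrays, so differences between the experiments also show as colour. The arrays without IL-7 at 24 h stand below time 0 for most genes of every class, while at 6 h with 4OHT and IL-7 the median difference of the members is -0.24.

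Removing IL-7 for 24 h lowered most of the histone genes, whether or not 4OHT was present. Without 4OHT, 17 of 26 members fell and 0 rose, where 20.0% of all genes passed in either direction, with 8.78% lower and 11.2% higher. With 4OHT, 19 fell and 0 rose, where 24.3% of all genes passed, with 11.5% lower and 12.8% higher. The median difference of the members was -0.45 without 4OHT and -0.60 with it, against -0.012 and 0.058 over all genes. These 2 comparisons share no array. Both called 16 members lower, which is 94.1% of the first list and 84.2% of the second, and 6 members passed in neither. All 4 arrays without IL-7 at 24 h lay below all 4 with IL-7 in 19 of 26 members and above them in 0, against 11.7% and 10.7% of all genes.

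In a bulk sample fewer cells in S phase and less histone RNA per cell cannot be told apart. Without the experiment 1 array of the cells withdrawn from IL-7 without 4OHT, 11 members fell in that comparison. With 4OHT, 12 fell without the experiment 1 array with IL-7 and also 12 without the experiment 1 array withdrawn from it.

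H3c15, an H3 gene on chromosome 3, had the deepest fall. It read 9.56 and 8.97 at time 0 (experiments 1 and 2), 9.18 and 8.51 after 6 h with 4OHT and IL-7, and 9.14 and 8.56 after 6 h with 4OHT alone. At 24 h with IL-7 it read 10.04 and 9.27 without 4OHT and 10.18 and 10.01 with it. Without IL-7 it read 7.28 and 7.42 without 4OHT and 7.90 and 7.41 with it. The 4 arrays withdrawn for 24 h were the lowest of the 14 and overlapped no other group. The difference was -2.30 ± 0.30 (SE, 2 arrays per group) without 4OHT, a 4.94-fold fall (adjusted p = 0.00022), and -2.44 ± 0.30 with 4OHT, a 5.42-fold fall (adjusted p = 9.39e-05).

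The other 2 H3 genes had values nearer to 0. H3c4 fell by 0.69 ± 0.17 without 4OHT (adjusted p = 0.0121) and by 0.65 ± 0.17 with it (adjusted p = 0.0146). The dim H3c7 fell with 4OHT (-0.65 ± 0.14, adjusted p = 0.00503). Without 4OHT its value was -0.40 ± 0.14 (adjusted p = 0.0707, and 0.042 with the experiment as a block).

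Among the H2A genes the response was uneven. H2ac4 read 12.31 and 11.89 at time 0 and between 11.59 and 12.24 in both 6 h groups. At 24 h, in the order experiments 1 and 2 without 4OHT and then with it, it read 12.20, 11.93, 12.18 and 12.21 with IL-7, but 10.60, 10.29, 10.87 and 10.68 without it. Every array withdrawn for 24 h was lower than all others. It fell by 1.62 ± 0.20 without 4OHT (adjusted p = 0.000146) and by 1.42 ± 0.20 with it (adjusted p = 0.000237). H2ac15, whose probe set is the brightest of this class, fell by 0.34 ± 0.07 (adjusted p = 0.00437) and by 0.46 ± 0.07 (adjusted p = 0.000428). H2ac8 had values of -0.35 ± 0.23 and -0.60 ± 0.23, which did not pass, though the second did with the block (adjusted p = 0.0126).

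H2ac1 and H2bc1 encode the H2A and H2B variants known from testis, and neither passed after 24 h without IL-7. H2ac1 read 11.43, 11.32, 11.53, 10.71, 10.64, 10.82 and 10.92 in the 7 groups of experiment 1, in the order time 0, 6 h with and without IL-7, 24 h with IL-7 without and with 4OHT, and 24 h without IL-7 without and with 4OHT. In experiment 2 it read 12.27, 12.35, 12.47, 11.46, 11.54, 11.87 and 12.28 in the same order. All 7 arrays of experiment 2 were higher than their partners, by 0.75 to 1.36, and within each experiment the 24 h arrays with IL-7 were the lowest. Withdrawal gave a difference of 0.26 ± 0.55 in cells without 4OHT (adjusted p = 0.84). In cells with 4OHT it was 0.51 ± 0.55 (adjusted p = 0.566, and 0.00281 with the block). H2bc1 also read higher in experiment 2 (0.11 to 0.79), with differences of -0.30 ± 0.29 and -0.03 ± 0.29. The testis and germ cell markers had means of 4.59 to 7.49 with a median of 5.0, and their part in these values was not tested.

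Of the H2B genes 5 fell in each comparison, though not the same 5 in both. H2bc18, an H2B gene on chromosome 3, read 11.01 and 10.86 at 24 h with IL-7 without 4OHT, and 10.80 and 10.82 with 4OHT. Without IL-7 it read 9.70 and 9.68 without 4OHT, and 9.56 and 9.57 with it. The groups did not overlap and their replicates lay close, and the fall was 1.25 ± 0.14 both without 4OHT (2.38-fold, adjusted p = 6.61e-05) and with it (2.37-fold, adjusted p = 3.72e-05). H2bc14 fell by 0.89 and 0.95, H2bc3 by 0.89 and 0.85, and H2bc9 by 0.79 and 0.84 (adjusted p between 9.07e-05 and 0.000246). H2bc4 fell without 4OHT (-0.44 ± 0.12, adjusted p = 0.0202) but had -0.27 ± 0.12 with it (adjusted p = 0.127). H2bc8 had the reverse, -0.43 ± 0.19 without 4OHT (adjusted p = 0.147) and a fall of 0.60 ± 0.19 with it (adjusted p = 0.0364). Neither difference between the conditions passed the test of the interaction. H2bc22 did not pass (-0.29 and -0.22), though the first did with the block (adjusted p = 0.0377).

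H2bc21, which encodes an H2B variant known from olfactory neurons, was the H2B gene that went the other way. It read 8.11 and 7.80 at 24 h with IL-7 without 4OHT, and 8.90 and 8.42 with 4OHT. Without IL-7 it read 8.52 and 8.37 without 4OHT, and 9.08 and 8.99 with it. The withdrawn arrays were higher than their partners in both experiments and at both 4OHT settings. The differences were 0.49 ± 0.18 (adjusted p = 0.0816) and 0.37 ± 0.18 (adjusted p = 0.168), and both passed as higher with the block (adjusted p = 0.00167 and 0.00847).

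Linker histone H1 genes also differed among themselves. H1f5 read 12.54 and 12.53 at 24 h with IL-7 without 4OHT, and 12.57 and 12.56 with 4OHT. Without IL-7 it read 11.70 and 11.33 without 4OHT, and 11.13 and 10.96 with it. These last 4 arrays were the lowest of the series, and the fall was 1.02 ± 0.14 without 4OHT (2.03-fold, adjusted p = 0.000383) and 1.51 ± 0.14 with it (2.86-fold, adjusted p = 1.32e-05). H1f1 fell by 0.78 ± 0.18 (adjusted p = 0.00942) and by 0.65 ± 0.18 (adjusted p = 0.021), the latter at an adjusted p of 0.0695 after renewed quantile normalization. H1f3 had -0.36 ± 0.12 without 4OHT (adjusted p = 0.0512, and 0.015 with the block) and fell by 0.41 ± 0.12 with it (adjusted p = 0.0235). H1f2, an H1 gene also known to give polyadenylated messages, read, in the order used for H2ac4, 11.17, 11.04, 11.47 and 11.25 with IL-7 and 11.11, 10.93, 11.26 and 11.29 without it. These ranges overlapped, and the difference was -0.08 without 4OHT (95% confidence interval -0.30 to 0.14) and -0.09 with it (-0.31 to 0.13).

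All 6 H4 genes fell in both comparisons. The falls ran from 0.28 to 0.80 without 4OHT, with a median of 0.49, and from 0.23 to 0.64 with 4OHT, with a median of 0.57. H4c14 read, in the order used for H2ac4, 12.97, 13.00, 13.02 and 13.03 at 24 h with IL-7 and 12.43, 12.61, 12.29 and 12.68 without it, so the groups did not overlap. It fell by 0.46 ± 0.11 (adjusted p = 0.0123) and by 0.54 ± 0.11 (adjusted p = 0.00387). H4c4 read 13.93 to 13.98 with IL-7 and 13.67 to 13.76 without it, the narrowest shift of the class, at adjusted p = 0.00982 and 0.0198. After renewed quantile normalization its differences were -0.11 (adjusted p = 0.26) and -0.089 (adjusted p = 0.415), and H4c8 with 4OHT no longer passed (-0.25, adjusted p = 0.0706). H4c3 had the deepest fall of the H4 genes without 4OHT (-0.80 ± 0.13, adjusted p = 0.00114).

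**Figure D2:**
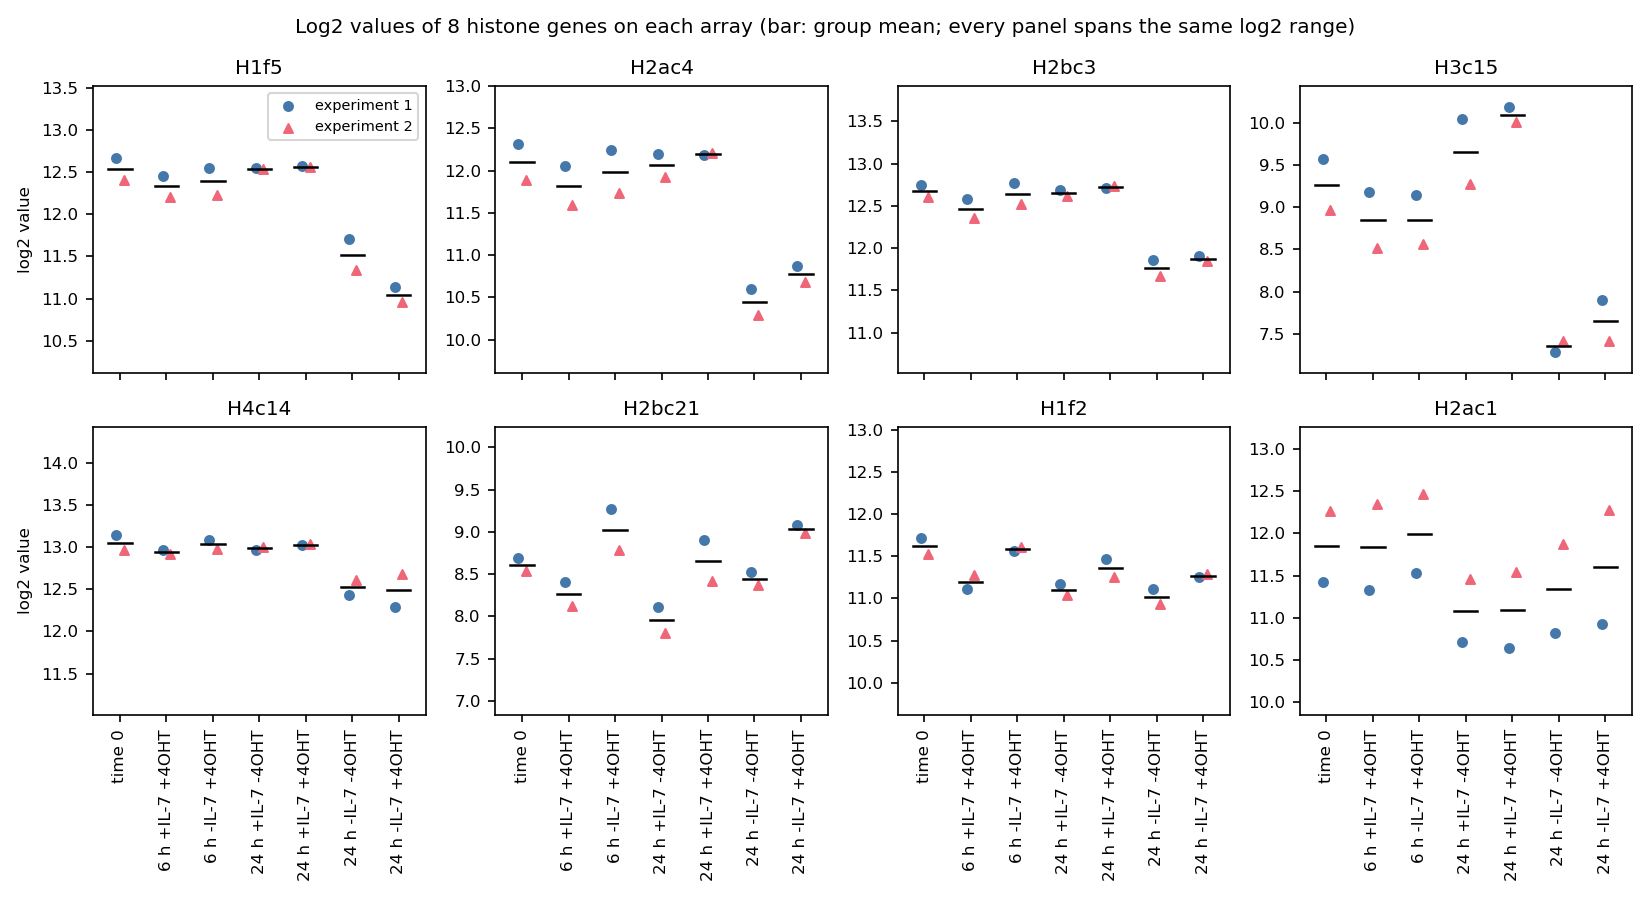
Log2 value of 8 histone genes on each of the 14 arrays, by group, with the group mean as a bar and both experiments as points. H3c15, H2ac4 and H1f5 are lowest in both 24 h groups without IL-7, H1f2 overlaps between groups with and without IL-7 at 24 h, H2bc21 is higher without IL-7 than in the same experiment with it, and the points of H2ac1 separate by experiment.

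After 6 h without IL-7 the histone genes had not fallen. All cells of this comparison had 4OHT. Of 26 members 2 rose and 0 fell, where 14.3% of all genes passed, with 6.78% higher and 7.48% lower. All 26 values were above 0, the lowest at 0.0043, and the median was 0.12 against 0.031 over all genes. The reference, the 6 h arrays with IL-7, itself lay below time 0 in all 26 members (median -0.24). Both one-sided patterns thus share these arrays, and their part in the rises was not tested. Against time 0, the mean of H1f2 without IL-7 was 11.58 against 11.62, and that of H2bc21 was 9.03 against 8.61. H2bc21 read 9.27 and 8.78 without IL-7 against 8.41 and 8.12 with it, which did not overlap, and rose 1.69-fold (0.76 ± 0.18, adjusted p = 0.0141). H1f2 read 11.56 and 11.60 without IL-7 and 11.12 and 11.28 with it, and rose by 0.39 ± 0.10 (adjusted p = 0.0215). H2bc4 had 0.33 ± 0.12 (adjusted p = 0.0933, and 0.0463 with the block, under which 21.3% of all genes passed). Leaving out the experiment 1 array without IL-7 left 0 passing, and leaving out its experiment 2 partner or the experiment 1 array with IL-7 left 1.

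The change between 6 h and 24 h was itself tested in the cells with 4OHT, as the difference of the withdrawal effects. It was negative and passed in 12 of 26 members, and 0 passed in the other direction, where 5.01% of all genes passed, 3.65% with a negative and 1.36% with a positive difference. The block raised this count from 12 to 18 by adding H1f1, H1f2, H2bc4, H3c4, H3c7 and H4c6, with 9.89% of all genes passing. The median was -0.69 against 0.033 over all genes. The differences in H3c15 (-2.44 ± 0.42), H2ac4 (-1.59 ± 0.28), H1f5 (-1.57 ± 0.20) and H2bc18 (-1.28 ± 0.19) were the 4 furthest from 0. Of the classes, 2 of 4 H1, 2 of 4 H2A, 4 of 9 H2B, 1 of 3 H3 and 3 of 6 H4 genes passed. Without the experiment 1 array at 6 h without IL-7, the count was 8.

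Cells with 4OHT and no IL-7 were then compared directly between 24 h and 6 h. These arrays are part of the difference of effects above, so this comparison is not separate evidence. Of 26 members 13 fell and 0 rose, where 11.9% of all genes passed (6.81% lower, 5.11% higher), and the median was -0.45. H1f5 fell by 1.34 ± 0.14 (adjusted p = 7.3e-05), H2ac4 by 1.22 ± 0.20, H3c15 by 1.2 ± 0.30 and H2bc18 by 0.90 ± 0.14. With the block 17 fell, where 18.7% of all genes passed, as H1f2 (adjusted p = 0.0282), H2ac1 (0.0224), H2bc1 (0.00824) and H3c4 (0.0241) were added. H4c4 (adjusted p = 0.34) and H4c6 (adjusted p = 0.0914) no longer passed here after renewed quantile normalization. The 13 became 8 without the experiment 1 array at 6 h. With IL-7 kept, 2 members rose between 6 h and 24 h and 0 fell, where 3.66% of all genes passed (1.63% higher, 2.03% lower). These were H3c15 (1.25 ± 0.30, adjusted p = 0.0399) and H4c9 (0.53 ± 0.13, adjusted p = 0.0489, and 0.0531 after renewed quantile normalization). With the block 7 rose, as H1f3, H2ac4, H2bc18, H2bc21 and H2bc3 were added, 1 fell, H2ac1, and 9.12% of all genes passed. Without any 1 of the 4 arrays compared, 0 or 1 passed.

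**Figure D3:**
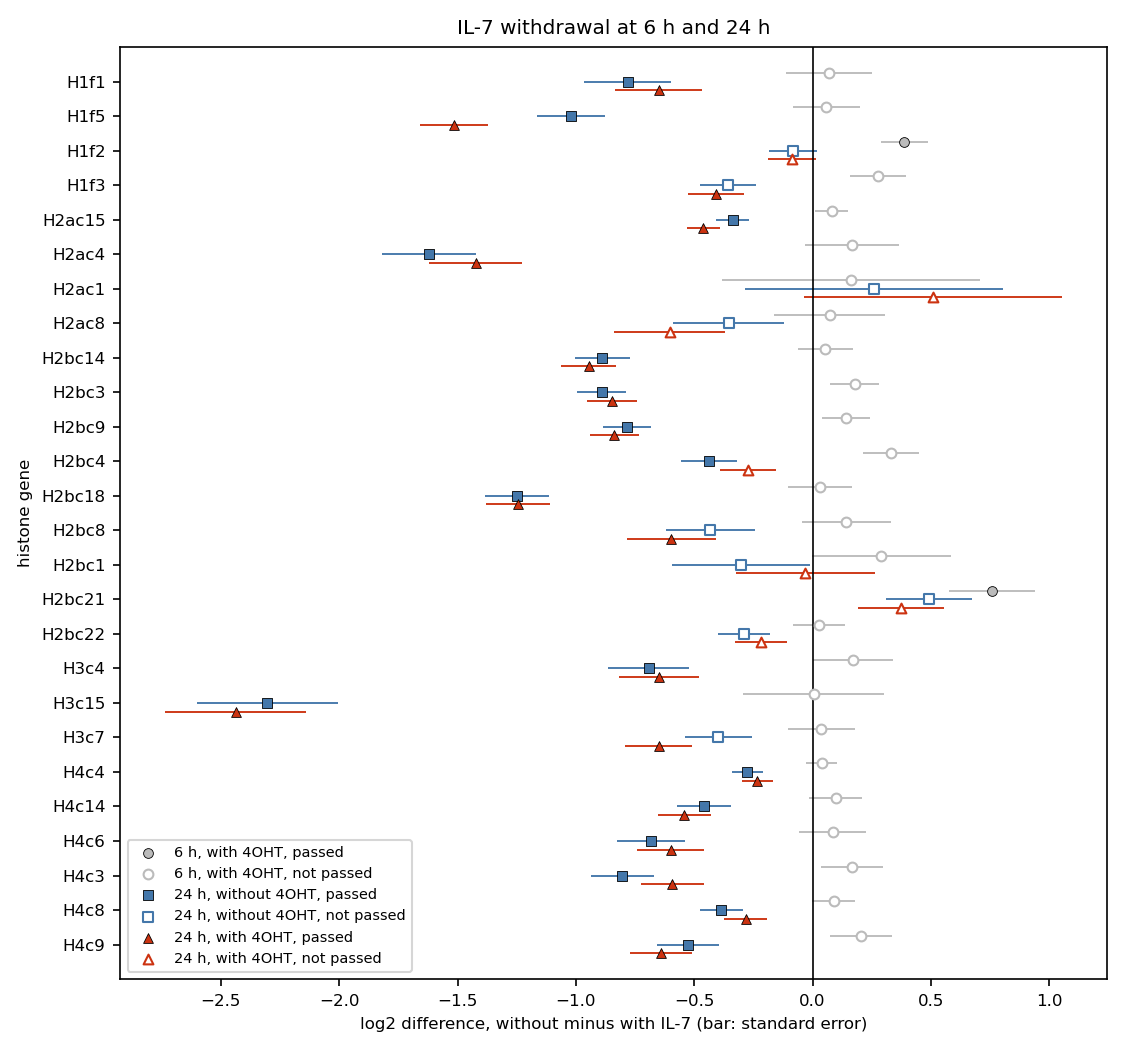
Log2 difference without minus with IL-7 for each histone gene at 6 h with 4OHT and at 24 h without and with 4OHT, with the standard error as a bar. At 6 h all 26 points lie above 0, and at 24 h all but H2ac1 and H2bc21 lie below it.

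4OHT, which induces the activity of the Ikaros fusion, changed few histone genes at 24 h. With only 26 members, the counts below do not stand apart from the shares of all genes. With IL-7 present, 1 of 26 members rose and 0 fell, where 9.16% of all genes passed (5.22% higher, 3.94% lower). This was H2bc21, from 8.11 and 7.80 without 4OHT to 8.90 and 8.42 with it, which did not overlap and amounts to a 1.63-fold rise (0.70 ± 0.18, adjusted p = 0.0296). The median of the members was 0.054 against -0.037 over all genes. Without IL-7, H2bc21 rose (0.59 ± 0.18, adjusted p = 0.0478) and H1f5 fell by 0.47 ± 0.14 (adjusted p = 0.0447), where 15.3% of all genes passed (7.10% higher, 8.17% lower). With the block H2ac4 (0.33) and H2bc22 (0.34) also rose, which made 4 in place of 2, and 22.4% of all genes passed. After renewed quantile normalization the rises of H2bc21 were 0.61 (adjusted p = 0.0798) and 0.60 (adjusted p = 0.0689). Leaving out 1 array changed the count with IL-7 to 0 (experiment 1 with 4OHT, or experiment 2 without it) or to 2 (experiment 1 without 4OHT, or experiment 2 with it), and that without IL-7 to 0 or 1 for each of its 4 arrays.

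The 2 treatments were then compared for their joint effect. For the interaction, whether withdrawal acts differently with 4OHT, limma called 0 members with 1 at an unadjusted p under 0.05 (H1f5), and 0 were called with the block. Of all genes 0.687% passed (0.0702% higher, 0.617% lower), and 2.25% did with the block. The median interaction was -0.00063, and the values ran from -0.50 in H1f5 to 0.27 in H2bc1. Against cells with IL-7 and no 4OHT, cells with both treatments had 15 members lower and 1 higher, where 33.6% of all genes passed (15.4% lower, 18.1% higher). H2bc21 was 2.11-fold higher (1.08 ± 0.18, adjusted p = 0.000454). The 4 largest falls were those of H3c15 (-2.00 ± 0.30), H1f5 (-1.49 ± 0.14), H2bc18 (-1.37 ± 0.14) and H2ac4 (-1.29 ± 0.20), which share their reference arrays with the withdrawal without 4OHT. With the block H2ac1 was higher (adjusted p = 0.00174) and H4c8 (0.0392) and H4c9 (0.0439) lower, which made 19 in place of 16, where 39.4% of all genes passed. The 16 calls became 10 without the experiment 1 array of both treatments. Calls for H1f1 (adjusted p = 0.0543) and H4c4 (adjusted p = 0.339) ended after renewed quantile normalization.

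Cells kept in IL-7 were also compared with time 0. After 6 h with 4OHT and IL-7, 4 of 26 members fell and 0 rose, where 8.77% of all genes passed (4.85% lower, 3.92% higher). All 26 values were below 0, with a median of -0.24 against -0.016 over all genes. These 6 h arrays are also the reference of the IL-7 withdrawal at 6 h, so both comparisons share them. H2bc8 went from 10.56 and 11.13 to 10.08 and 9.94 (-0.83 ± 0.19, adjusted p = 0.0149), and H1f3 from 8.06 and 7.82 to 7.07 and 7.29 (-0.76 ± 0.12, adjusted p = 0.00132). Neither gene's groups overlapped. H4c9 fell by 0.55 ± 0.13 (adjusted p = 0.0192) and H1f2 by 0.42 ± 0.10 (adjusted p = 0.0193). With the block H2bc21 (adjusted p = 0.0275) and H3c4 (0.0224) were lower too, which made 6, where 2999 of all 19938 genes passed. Culture time and 4OHT cannot be told apart here. The 4 became 2 without the experiment 1 array at time 0 and 1 without the experiment 1 array at 6 h.

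After 24 h with IL-7 and no 4OHT, 2 of 26 members were lower than at time 0 and 0 higher, where 3.09% of all genes passed (2.36% lower, 0.737% higher). Both were H1 genes, H1f3 (-0.60 ± 0.12, adjusted p = 0.02) and H1f2 (-0.52 ± 0.10, adjusted p = 0.0202). The median was -0.059 against 0.015 over all genes. H2ac1 (-0.76), H2bc21 (-0.66) and H2bc8 (-0.70) joined them with the block, which made 5, with 10.3% of all genes passing. H1f3 had an adjusted p of 0.0626 after renewed quantile normalization. The count was 1 without the experiment 1 array at time 0, and 0 without its experiment 2 partner or the experiment 2 array at 24 h.

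The experiments differed for some members. The median of experiment 2 minus experiment 1 over the 7 groups was 0.94 for H2ac1, 0.49 for H2bc1 and -0.58 for H3c15, whose values ran from -0.77 to 0.14. H1f1 read 13.32 and 13.36 in experiment 1 and 13.33 and 13.35 in experiment 2 at 24 h with IL-7, but 12.26 and 12.41 against 12.83 and 13.00 without it. The median fall of the members on withdrawal was 0.56 in experiment 1 and 0.44 in experiment 2 without 4OHT, and 0.73 and 0.35 with it. In both experiments 24 of 26 members were lower without 4OHT, and 22 with it.

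**Figure D4:**
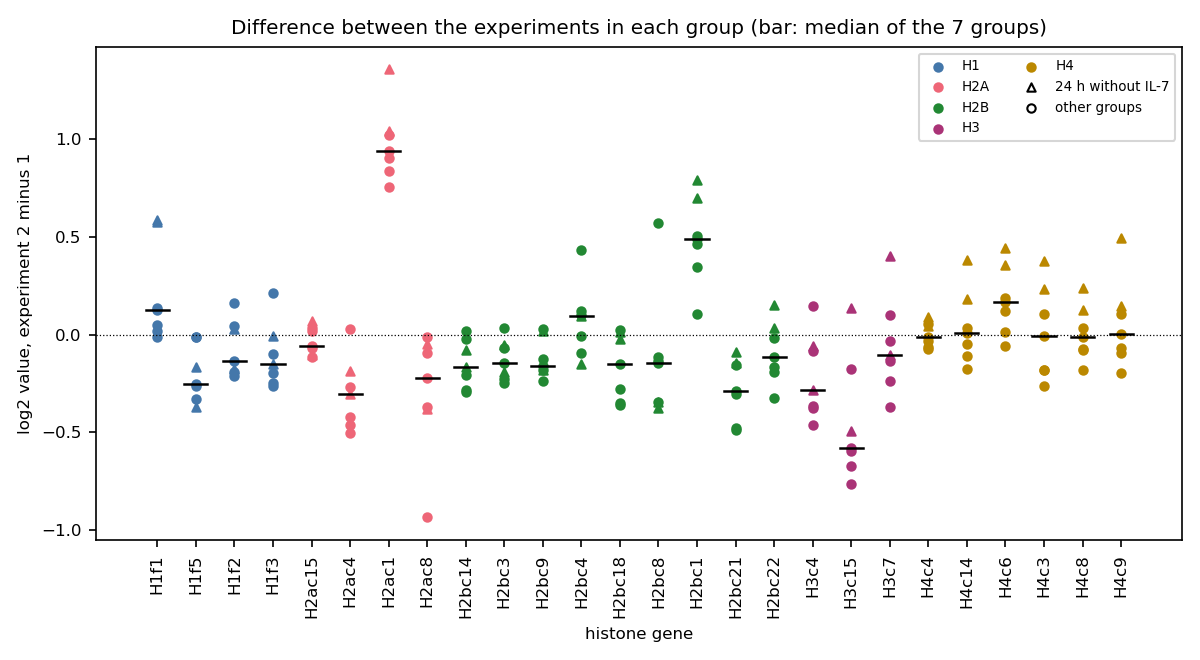
Experiment 2 minus experiment 1 in log2 units for each histone gene, with 1 point per group and the median of the 7 groups as a bar. H2ac1 and H2bc1 lie above 0 in every group, that of H3c15 lies at -0.58, and the other medians lie between -0.31 and 0.17.

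Genes that work with the histones were counted beside them. The processing and transcription list holds SLBP, the U7 snRNP and cleavage factors that cut the message, and factors that transcribe or degrade it. The shares of all genes to read these lists against were, on IL-7 withdrawal, 7.48% lower and 6.78% higher at 6 h, 8.78% lower and 11.2% higher at 24 h without 4OHT, and 11.5% lower and 12.8% higher at 24 h with it. The medians of all genes were 0.031, -0.012 and 0.058. At 6 h, 8 of 21 processing and transcription genes fell and 1 rose (median -0.10). At 24 h 10 fell and 1 rose without 4OHT (median -0.24), and 12 fell and 1 rose with it (median -0.44). Slbp, the stem-loop binding protein, had 0.15 ± 0.15 at 6 h, which did not pass, and fell at 24 h by 0.79 ± 0.15 (adjusted p = 0.0028) and 0.78 ± 0.15. Zfp473, a U7 snRNP partner, fell by 0.65 ± 0.10 and Cstf2, a cleavage factor, by 0.55 ± 0.09 at 24 h without 4OHT. With 4OHT the largest falls beside that of Slbp were those of Snrpd3 (-0.96 ± 0.08), a core protein of snRNPs, and of Ncbp1 (-0.70 ± 0.10), a cap-binding protein. At 6 h these were Snrpd3 (-0.73), Ncbp1 (-0.56) and Snrpb (-0.44). Tut7, a uridylyltransferase that marks histone messages for decay, was the riser each time (0.33, 0.65 and 0.59). Npat, the coactivator of histone genes, did not pass in any of these (-0.01, -0.10 and -0.18).

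S phase genes fell at 24 h without exception in the list, 31 of 31 without 4OHT (median -1.38) and 31 of 31 with it (median -1.61). At 6 h, 2 of 31 fell, Mcm6 (-0.85) and Cdc25a (-0.42), which is near the share of all genes. The largest falls at 24 h were in Pole (-2.11 ± 0.14), Prim1 (-1.93 ± 0.17) and Cdc45 (-1.88 ± 0.16) without 4OHT, and in Pola1 (-2.73 ± 0.20), Pole (-2.64 ± 0.14) and Tyms (-2.56 ± 0.17) with it, genes of DNA polymerases, their primase, the replicative helicase and nucleotide supply. All 17 G2/M genes fell in both (medians -1.79 and -1.73). At 6 h limma called 0 of them, with 4 at an unadjusted p under 0.05. With the block 6 of the 31 S phase genes and 4 of the 17 G2/M genes passed at 6 h, where 21.3% of all genes did, so neither count stands apart from all genes. The part of cell cycle shifts in the fall of the histone genes was not tested.

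Histone chaperones, which carry histones to DNA, fell at 24 h in 15 of 21 genes without 4OHT (median -0.59) and in 17 of 21 with it (median -1.0), where 1, Atrx (0.29 ± 0.09), rose. Without 4OHT the largest falls were in Chaf1a (-1.56 ± 0.13), Asf1b (-1.49 ± 0.17) and Hirip3 (-1.41 ± 0.13). With 4OHT they were in Mcm2 (-2.06 ± 0.13), Chaf1a (-1.97 ± 0.13) and Hirip3 (-1.90 ± 0.13). Chaf1a is a subunit of the assembly factor that follows the replication fork. At 6 h 6 fell, led by Ipo4 (-1.43), an importin for histones, Mcm2 (-0.65) and Nap1l1 (-0.53), and Cdan1 rose (0.38), 7 in all where 14.3% of all genes passed. With the block 12 passed, where 21.3% of all genes did. Without IL-7, 7 chaperones were lower and 2 higher with 4OHT, where 8.17% of all genes were lower and 7.10% higher. With the block 14 chaperones passed, where 22.4% of all genes did. In that comparison 11 of 31 S phase genes were lower and 1 higher (median -0.36), and 19 passed with the block.

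Replication-independent histones and variants, which are made outside S phase too, were lower at 24 h in 3 of 14 genes without 4OHT (median -0.13) and in 5 of 14 with it (median -0.029), and 0 were higher. Counted in either direction, 20.0% and 24.3% of all genes passed, so the first count is near that share. Only 9 of the 14 had a mean above the overall median of 7.33, the dimmest at 5.61, so the list medians include dim genes. H3f3b and H1f0 were listed but not measured. H2ax, H2az1 and Cenpa fell by 1.32 ± 0.19, 0.65 ± 0.08 and 1.07 ± 0.13 without 4OHT, and by 1.38 ± 0.19, 0.78 ± 0.08 and 0.72 ± 0.13 with it. At 6 h, where 14.3% of all genes passed, H2az2 (0.40) and H2aw (0.23) rose and H2aj (-0.42) and Macroh2a1 (-0.27) fell. H2aw is the former Hist3h2a, a clustered H2A gene, so its place among the replication-independent genes is uncertain. It is also among the 5 that were lower at 24 h with 4OHT (-0.23 ± 0.07, adjusted p = 0.0253).

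**Figure D5:**
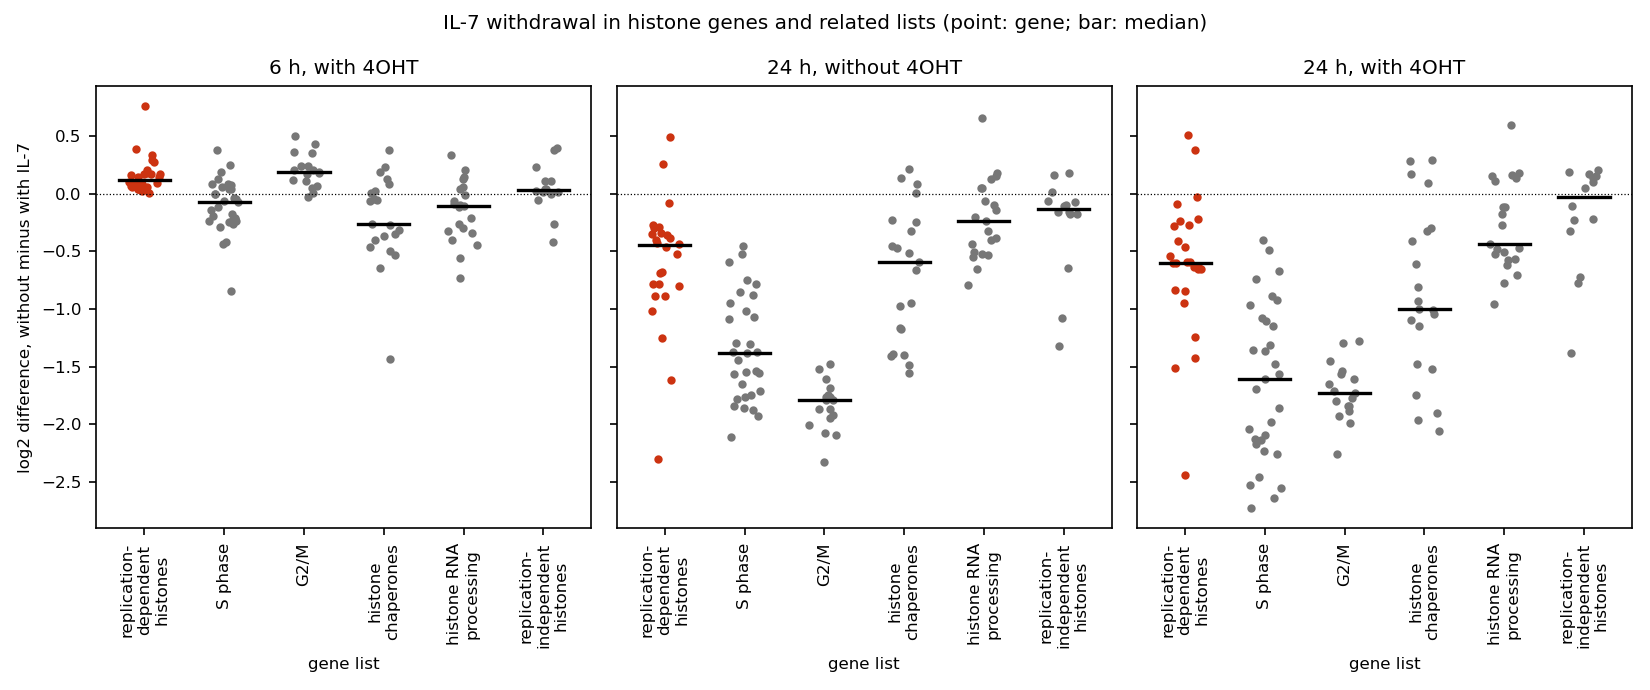
Log2 difference without minus with IL-7 for the histone genes and 5 related lists at 6 h with 4OHT and at 24 h without and with 4OHT, with 1 point per gene and the list median as a bar. At 24 h the medians of the S phase and G2/M lists lie between -1.38 and -1.79. Those of the replication-dependent histones lie at -0.45 and -0.60, and those of the variants at -0.13 and -0.029. Only 9 of the 14 variants had a mean above the overall median of all values.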

How the data were processed

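Expression was measured on 14 microarrays of BH1-Bcl2-Ik1ER cells. Per the labels' protocols, total RNA (150 ng) was labelled with whole-transcript kits from Ambion and Affymetrix. The deposited log2 values cover 35556 probe sets and were made by the authors with Affymetrix Expression Console 1.1 and RMA per the submitters' processing notes, and they were used unscaled. RMA sets arrays to a common distribution, so a difference is relative to most other genes. The genome build is not given in the sources used here.

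Probe sets were named through the platform annotation. Those with 1 symbol were kept, and for 999 genes with several the one with the highest mean was used, which left 19938 genes. limma 3.58.1 in R 4.3.3 fitted 1 model to the 14 arrays with group means and no block (7 residual and 4.83 prior degrees of freedom), with two-sided tests and Benjamini-Hochberg adjustment over all genes. The 2 experiments pair the arrays, per the labels and a check in which the departures of arrays of 1 experiment from group means had correlations of 0.124 to 0.631 over the 21 pairs of groups. Blocked values stand beside results only where they change a call or move a count by over 1.5-fold. All p-values measure the spread between 2 experiments in 1 line.

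The members, the gene lists and the rules were chosen with earlier results of these data known. Named are, per class, the 2 members with the highest mean, in each comparison the 4 members that rose most and the 4 that fell most among those that passed, the 2 members with the widest range of group means, the 3 dimmest, and the 3 largest changes per direction in each list described. Other members, named to account for all 26, fall outside that rule and were added after their values were seen. Promoter windows and motif counts use RefSeq entries of GRCm38.p6, and chromosome and strand come from that table. Promoters of 4 members were not used here.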

Additional observations from a re-analysis of the deposited data

Results flagged for a closer look

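For 12 histone genes the effect of IL-7 withdrawal at 24 h differed from that at 6 h, both in cells with 4OHT, by limma's test of the difference itself (2 arrays per group). Among H1 genes the difference of effects was -1.57 ± 0.20 (SE) in H1f5 (adjusted p = 0.000532) and -0.68 ± 0.17 in H1f3 (adjusted p = 0.034). H1f3 had an adjusted p of 0.0749 after renewed quantile normalization. Among H2A genes it was -1.59 ± 0.28 in H2ac4 (adjusted p = 0.0048) and -0.54 ± 0.10 in H2ac15 (adjusted p = 0.00592). The 4 H2B genes were H2bc18 at -1.28 ± 0.19 (adjusted p = 0.00148), H2bc3 at -1.03 ± 0.15 (adjusted p = 0.0011), H2bc14 at -1.0 ± 0.17 (adjusted p = 0.00302) and H2bc9 at -0.98 ± 0.14 (adjusted p = 0.00132). H3c15 had -2.44 ± 0.42 (adjusted p = 0.00416), since its effect was 0.0043 at 6 h and -2.44 at 24 h. The 3 H4 genes were H4c9 at -0.85 ± 0.18 (adjusted p = 0.0201), H4c3 at -0.76 ± 0.19 (adjusted p = 0.0387) and H4c14 at -0.64 ± 0.16 (adjusted p = 0.0404). H4c14 had an adjusted p of 0.084 after renewed quantile normalization. The difference was negative in both experiments for 25 of the 26 members.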

How the results depend on the processing

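No count changed direction and no gene's call was reversed under any alternative run. With the experiment as a replicate block, the members that passed were 5 for 24 h against time 0, 4 for 4OHT without IL-7 and 8 for 24 h against 6 h with IL-7. The block ended none of the 90 gene calls. Renewed quantile normalization gave 1 for 24 h against time 0, 0 for 4OHT with IL-7, 1 without IL-7 and 1 for 24 h against 6 h with IL-7, and ended 14 of the 90 calls. It shifted the median of all genes by at most -0.076. Fitting only the arrays compared gave 2 at 6 h against time 0, 0 at 24 h against time 0 and 0 for 4OHT with IL-7, and ended 15 calls. Adding 17 probe sets of several histone symbols gave 34 and 32 of 43 for withdrawal at 24 h without and with 4OHT, 32 for both treatments, 24 for 24 h against 6 h without IL-7 and 23 for the change between times. Adding 7 H2B sets that list H4bc24, a choice made after seeing the data, gave 41, 39, 39, 31 and 30 of 50. Most of the added sets read pools of near-identical copies, so these counts are not of separate genes. Averaging probe sets and an intensity trend with a robust prior ended no call. Leaving out dim genes removed H3c7, called with 4OHT at 24 h, and ended none of the other 89 calls.

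Leaving out 1 array ended 123 of 408 gene calls and reversed none. It gave 1 to 3 calls at 6 h against time 0, 0 to 2 for withdrawal at 6 h, 0 to 2 at 24 h against time 0, 0 to 2 for 4OHT with IL-7 and 0 to 1 without it. It gave 11 to 16 and 12 to 16 for withdrawal at 24 h without and with 4OHT, 0 to 0 for the interaction, 10 to 17 for both treatments, 0 to 1 and 8 to 14 for 24 h against 6 h with and without IL-7, and 8 to 14 for the change between times. No detection limit was available from the log2 table.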

Other observations

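Probe sets that list several histone symbols also fell after 24 h without IL-7. Of 17 such sets, 10 hold H3 genes, 6 hold H4 genes and 1 holds H2bc6 with H1f4, and 16 have values of their own because 2 sets hold the same values. Without 4OHT all 17 fell (median -0.36, from -0.67 to -0.22). With 4OHT 13 of 17 fell (median -0.38). At 6 h 0 passed in limma, and their values lay between -0.016 and 0.061. A further 7 H2B sets, which also list the symbol H4bc24, fell in both comparisons at 24 h (medians -0.33 and -0.38), and 2 sets with other symbols were not used. Most of these sets read pools of near-identical copies, and 1 reads genes of different classes (H2bc6 with H1f4). No single gene can be named from them. The deepest falls of the 17 (-0.67 and -1.0) were in an H4 set with only 2 symbols and a mean of 8.30. The 10 H3 sets each list 12 symbols and had means of 13.66 to 13.95, near the highest log2 value of 14.34. They are therefore repeated readings of a pool.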
